A study of Homo sapiens with 6 samples.

Results

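Bidirectional protein-coding promoters were examined in CTCF and SMC1 CUT&Tag peak lists from IMR90 cells, a line of human lung fibroblasts. A bidirectional promoter was taken as a pair of GRCh38 protein-coding genes on opposite strands of chromosomes 1 to 22, with the 5′ end of the minus-strand gene up to 1000 bp below that of the plus-strand gene, so that the genes lie head to head and are transcribed away from each other. The region of a pair ran from 500 bp outside the one 5′ end to 500 bp outside the other. This rule used annotation alone and no measured value. It found 984 pairs among the 18783 protein-coding 5′ ends with a known strand, and 1941 of those 5′ ends (10.3%) belonged to a pair. The other 16842 were kept as single 5′ ends, each extended by 500 bp on both sides. Pairs are written as minus-strand gene/plus-strand gene throughout.

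The study profiled 2 proteins in 3 conditions, with 1 library per group and 6 libraries in all. CTCF is a DNA-binding insulator protein, and SMC1 is a subunit of cohesin, the ring-shaped complex that extrudes chromatin loops and is halted by CTCF. The control cells carried the p number 21 for CTCF and 16 for SMC1, the ICM cells, which received inflachromene (a compound that binds HMGB1 and HMGB2), carried p16 for both, with 6 days of treatment named for the CTCF library, and the senescent cells carried p34 and no treatment. The p34 titles name no condition, and these libraries were taken as senescent from the series design. In CUT&Tag a transposase tethered through an antibody cuts DNA near the bound protein, and the authors kept the top 1% of enriched regions in each library as peaks. The p number and the condition cannot be told apart for CTCF. The same holds for SMC1 in senescent cells (p34) against control cells (p16), whereas the SMC1 control and ICM libraries were both p16. With no replicate library in any group, no difference between conditions could be set against a spread between cultures. Intervals given here are 95% intervals that cover counting over regions only. Where 3 values of one antibody follow each other, their order is control, ICM-treated and senescent cells.

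Head-to-head gene pairs are a common arrangement in mammalian genomes. The stretch between the 5′ ends is usually a CpG island without a TATA box, and it recruits a transcription machinery for each direction. Many such pairs encode proteins of DNA repair, mitochondria and the core histones. The 5′ ends of a pair lay a median of 173.5 bp apart (quartiles 99 and 292.25 bp, range 1 to 995 bp). Chromosome 1 held 92 pairs and chromosome 21 held 8, and the share of 5′ ends that were in a pair ranged from 6.78% on chromosome 21 to 13.6% on chromosome 16. In all, 54 pairs shared a gene with another pair, as where a readthrough gene repeats a 5′ end.

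The stretch between the 5′ ends is shown for 7 pairs, both end bases included, on the plus strand of GRCh38.p14 as given by RefSeq. They were picked to set side by side pairs with strong peaks in all lists, pairs missing from a senescent list, histone pairs and a pair without a peak. Capitals mark matches on either strand to letters recognised by ETS factors (CCGGAAG), NRF1 (GCGCATGCG), NF-Y (CCAAT), YY1 (AAGATGGCG) or TATA-binding protein (TATAAA), or to a core of the CTCF motif (CNAGGNGGC). A match is a description of the letters and not a bound site.
SARS2/MRPS12, chr19:38930763-38930944, a peak near the top of all 6 lists: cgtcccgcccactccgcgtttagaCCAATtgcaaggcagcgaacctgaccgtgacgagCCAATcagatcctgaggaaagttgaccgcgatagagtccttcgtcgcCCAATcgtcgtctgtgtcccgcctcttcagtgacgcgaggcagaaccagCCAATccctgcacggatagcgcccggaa
INTS7/DTL, chr1:212035557-212035748, a strong peak in all 6 lists: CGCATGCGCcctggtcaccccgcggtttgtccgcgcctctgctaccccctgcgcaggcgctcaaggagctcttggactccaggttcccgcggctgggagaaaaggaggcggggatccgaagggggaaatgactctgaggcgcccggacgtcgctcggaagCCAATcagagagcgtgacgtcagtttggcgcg
RECQL/GOLT1B, chr12:21501635-21501789, SMC1 peaks only: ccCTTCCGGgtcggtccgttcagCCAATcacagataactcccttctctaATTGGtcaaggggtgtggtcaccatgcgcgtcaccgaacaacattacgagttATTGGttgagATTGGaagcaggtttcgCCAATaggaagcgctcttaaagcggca
H2BC11/H2AC11, chr6:27132795-27133043, histone genes with SMC1 peaks only: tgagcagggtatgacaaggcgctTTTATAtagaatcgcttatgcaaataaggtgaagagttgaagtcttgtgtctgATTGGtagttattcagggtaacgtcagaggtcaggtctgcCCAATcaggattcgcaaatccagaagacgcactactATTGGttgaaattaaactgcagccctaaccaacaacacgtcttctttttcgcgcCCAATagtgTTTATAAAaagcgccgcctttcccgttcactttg
H2BC21/H2AC20, chr1:149886682-149886918, histone genes with no peak in the senescent lists: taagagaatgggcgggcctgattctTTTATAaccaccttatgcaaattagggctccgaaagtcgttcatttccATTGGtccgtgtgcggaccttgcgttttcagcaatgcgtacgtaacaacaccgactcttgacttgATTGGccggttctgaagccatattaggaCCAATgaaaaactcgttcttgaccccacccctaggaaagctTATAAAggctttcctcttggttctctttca
COL4A1/COL4A2, chr13:110307157-110307284, no SMC1 peak in the senescent list: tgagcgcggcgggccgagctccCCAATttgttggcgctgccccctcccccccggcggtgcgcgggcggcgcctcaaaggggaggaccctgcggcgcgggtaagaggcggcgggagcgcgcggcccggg
SIRT3/PSMD13, chr11:236931-236976, no peak in any list: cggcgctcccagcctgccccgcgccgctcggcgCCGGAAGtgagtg

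Cohesin peaks lay over most bidirectional promoters, and CTCF peaks over a minority. In control cells SMC1 peaks overlapped 663 of the 984 pairs (67.4%, 64.3 to 70.3%), whereas 29% of single 5′ ends had one. In ICM-treated cells the SMC1 list covered 605 pairs (61.5%, 58.4 to 64.5%) against 24.8% of single 5′ ends, and in senescent cells 507 pairs (51.5%, 48.4 to 54.7%) against 20.6%. CTCF peaks overlapped 174 pairs (17.7%, 15.3 to 20.2%) in control cells, 267 (27.1%, 24.4 to 30.0%) in ICM-treated cells and 169 (17.2%, 14.9 to 19.7%) in senescent cells, where single 5′ ends had 9.57%, 13.6% and 9.9%.

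The share was thus higher at pairs than at single 5′ ends in each of the 6 lists. For SMC1 the difference was 38.4 (35.3 to 41.4), 36.6 (33.5 to 39.8) and 30.9 points (27.7 to 34.2), and for CTCF it was 8.11 points (5.73 to 10.7), 13.5 (10.7 to 16.5) and 7.28 (4.92 to 9.82). As a ratio, pairs had a peak 2.33, 2.47 and 2.50 times as often as single 5′ ends for SMC1, and 1.85, 2.00 and 1.74 times for CTCF. A pair spans more sequence than a single 5′ end, so each 5′ end of a pair was also given its own window of the single type. The shares were then 66.8%, 60.7% and 50.9% for SMC1 and 17.6%, 27.3% and 17.1% for CTCF. Cutting the lists of an antibody to one length, by total signal, left the CTCF difference in senescent cells at 3.24 points. The lists hold no measure of transcription.

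**Figure D1:**
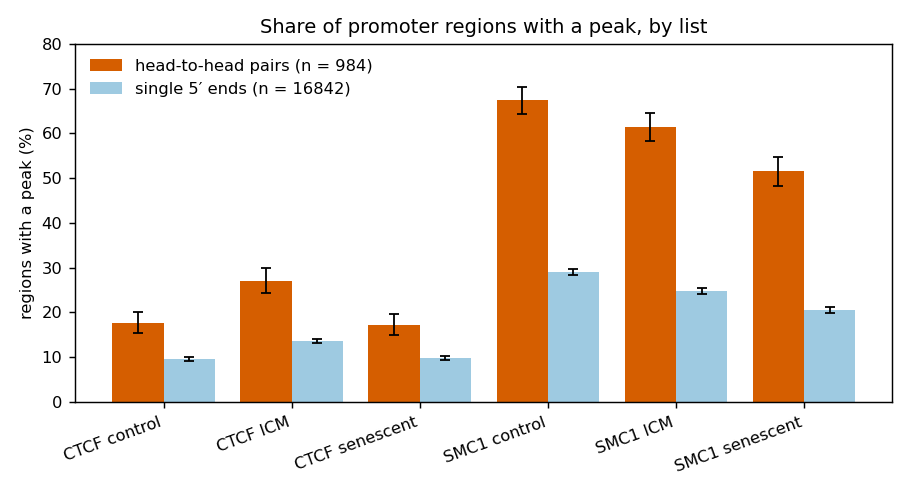
Share of regions with at least 1 overlapping peak (y axis, percent) in each of the 6 lists (x axis), for 984 head-to-head pairs and 16842 single 5′ ends. Error bars are exact 95% intervals over regions, and the bar for pairs is above the bar for single 5′ ends in every list.

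Pairs occupied by CTCF were mostly occupied by cohesin as well. In control cells 159 of the 174 pairs with a CTCF peak also had an SMC1 peak (91.4%, 86.2 to 95.1%), compared with 81.6% (79.6 to 83.4%) of single 5′ ends. In ICM-treated cells these shares were 88.8% (84.3 to 92.3%) and 73.2% (71.4 to 75.02%), and in senescent cells 84.0% (77.6 to 89.2%) and 66.8% (64.4 to 69.0%). With or without CTCF, an SMC1 peak was found at 67.4%, 61.5% and 51.5% of pairs and at 29%, 24.8% and 20.6% of single 5′ ends. The share at CTCF peaks thus stood further above this background at single 5′ ends than at pairs. Read the other way, of the pairs with an SMC1 peak, 24.0% (20.8 to 27.4%) had a CTCF peak in control cells, and single 5′ ends had 27.0% (25.7 to 28.2%). In ICM-treated cells these shares were 39.2% (35.3 to 43.2%) and 40.1% (38.6 to 41.6%), and in senescent cells 28.0% (24.1 to 32.1%) and 32.1% (30.5 to 33.7%). SMC1 peaks without a CTCF peak were found at 504, 368 and 365 of the 984 pairs. Of the 16842 single 5′ ends, 3562, 2508 and 2355 had one.

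Peaks at 108 pairs (10.98%) were present in all 6 lists, where 4.77% of single 5′ ends were, and 240 pairs (24.4%) had no peak in any list, against 63.8% of single 5′ ends. The pair with the highest mean rank over the 6 lists was SARS2/MRPS12, the genes of mitochondrial seryl-tRNA synthetase and of a mitochondrial ribosomal protein (region chr19:38930263-38931444). A peak is placed here by its percentile, the share of peaks of its own list that have a lower total signal (coverage summed over the peak), because a common scale between the lists could not be established here. SARS2/MRPS12 stood at percentiles 98.9, 99.4 and 99.7 in the control, ICM and senescent CTCF lists and at 97.9, 99.1 and 98.8 in the SMC1 lists. The bases between its 5′ ends held 4 CCAAT letters and no match to the CTCF core, and the CTCF summits lay at −293 to −158 bp from the midpoint of the pair, on the SARS2 side.

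Further pairs at the top of the lists were of mixed function. INTS7/DTL, encoding an Integrator subunit and a substrate receptor of the CUL4 ubiquitin ligase, stood at 99.1, 98.8 and 98.4 for CTCF and at 91.5, 95.2 and 91.0 for SMC1. VPS35/ORC6, encoding a retromer subunit and a subunit of the origin recognition complex, stood at 90.4 in each of the CTCF lists and at 99.6, 99.8 and 99.4 for SMC1. CCDC142/TTC31 stood at 81.2, 94.3 and 95.4 for CTCF and at 99.2, 99.4 and 99.7 for SMC1. PLEKHJ1/SF3A2, the latter a splicing factor, stood at 91.6, 95.3 and 96.7 for CTCF and at 96.5, 99.2 and 99.2 for SMC1. At RRP9/PARP3, a pre-rRNA processing factor and a poly(ADP-ribose) polymerase, the percentiles were 95.2, 97.4 and 98.6 for CTCF and 96.3, 94.6 and 95.5 for SMC1. None of these 5 pairs fell below the 81st percentile of a list. TLCD1/NEK8 reached 97.2, 98.6 and 98.5 for CTCF with peaks up to 4588 bp wide, but the CTCF summits lay at −1404 to −1349 bp from its midpoint, outside the region.

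**Figure D2:**
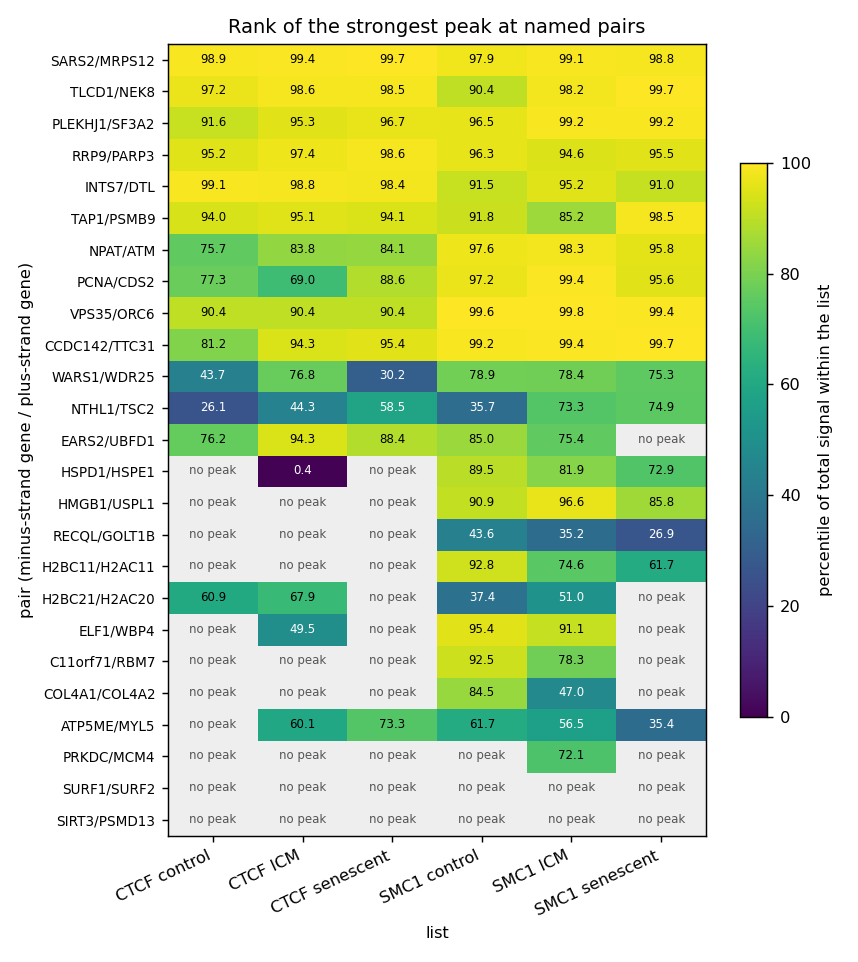
Percentile of total signal of the strongest peak at 25 named pairs (rows) in the 6 lists (columns), on a color scale from 0 to 100, with grey cells where the list had no peak at the pair. SARS2/MRPS12 was above 97 in every list, whereas SURF1/SURF2 and SIRT3/PSMD13 had no peak in any of them.

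Pairs that are textbook examples of bidirectional promoters ranged from the top of all lists to no peak at all. Of 28 genes of such pairs, 20 met the rule, and with readthrough genes these made 11 pairs. HSPD1/HSPE1 and HSPD1/HSPE1-MOB4 are the same region with the same peaks, so this region is counted as 2 of the 11. Of the 11, an SMC1 peak was found at 8, 9 and 7, and a CTCF peak at 4, 6 and 4, beside 67.4%, 61.5% and 51.5% of all 984 pairs for SMC1 and 17.7%, 27.1% and 17.2% for CTCF. NPAT/ATM, the histone gene coactivator and the DNA damage kinase, stood at 97.6, 98.3 and 95.8 for SMC1 and 75.7, 83.8 and 84.1 for CTCF. TAP1/PSMB9, the peptide transporter and the immunoproteasome subunit of the MHC class II region, stood at 91.8, 85.2 and 98.5 for SMC1 and at 94.0, 95.1 and 94.1 for CTCF. These pairs had peaks in all 6 lists.

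Among the same examples, HSPD1/HSPE1, the mitochondrial chaperonin and its co-chaperonin, had SMC1 peaks at 89.5, 81.9 and 72.9 and CTCF only in ICM-treated cells, at the 0.394th percentile. RECQL/GOLT1B, a DNA helicase and a Golgi transport protein, had SMC1 peaks at 43.6, 35.2 and 26.9 and no CTCF peak, with 5 CCAAT letters in the 155 bases between its 5′ ends. PRKDC/MCM4, encoding the DNA-dependent protein kinase and a replicative helicase subunit, had a single peak, for SMC1 in ICM-treated cells at 72.1. SURF1/SURF2 and SIRT3/PSMD13, with 5′ ends 63 and 45 bp apart, had no peak in any list.

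Between conditions, SMC1 peaks covered fewer pairs in senescent than in control cells, with a difference of −15.9 points (−20.2 to −11.5), and also in ICM-treated cells, with −5.89 points (−10.2 to −1.59). The same regions were counted in every list, and the intervals between conditions treat the shares as independent. At single 5′ ends the SMC1 differences were −8.37 and −4.11 points. Set as a ratio to control, the senescent list held 0.765 of the share at pairs and 0.711 at single 5′ ends, and the ICM list held 0.913 and 0.858. For CTCF the share at pairs differed by −0.508 points (−3.93 to 2.92) in senescent cells and by 9.45 points (5.71 to 13.2) in ICM-treated cells, with 0.327 and 4.02 points at single 5′ ends. The CTCF differences moved with the length of the lists, which held 4673, 6728 and 8577 peaks in control, ICM-treated and senescent cells. With each list cut to its 4673 strongest peaks, the ICM difference was 0.915 points and the senescent one −8.54 points. The SMC1 differences stayed below 0 under the same cut, at −12.1 points for senescent and −11.6 points for ICM-treated cells.

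By the lists that held them, SMC1 pairs fell mainly into 2 classes. A peak in all 3 lists was found at 438 pairs (44.5%), where 15.8% of single 5′ ends had one, and a peak in control and ICM-treated but not senescent cells at 124 pairs (12.6%), where the share was 6.39%. Peaks in control cells alone were found at 60 pairs (6.10%, against 4.79%), in control and senescent cells at 41 (4.17%, against 2.02%), in ICM-treated cells alone at 35 (3.56%, against 1.83%), in senescent cells alone at 20 (2.03%, against 1.95%) and in ICM-treated and senescent cells at 8 (0.813%, against 0.861%). In the last of these classes the share at pairs was not above that at single 5′ ends.

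For CTCF, 133 pairs (13.5%) had a peak in all 3 lists, where 7.4% of single 5′ ends had one. The next class was ICM-treated cells alone with 79 pairs (8.03%, against 3.21%), and it was followed by control and ICM-treated cells with 33 (3.35%, against 1.67%) and ICM-treated and senescent cells with 22 (2.24%, against 1.32%). Few pairs had a CTCF peak in senescent cells alone (12, 1.22% against 1.02%), in control cells alone (6, 0.610% against 0.344%) or in control and senescent cells (2, 0.203% against 0.16%). In the cut to lists of equal length, the class in all 3 lists was 8.33% for CTCF and 40.9% for SMC1. For the other classes no value under that cut is given here. Under it the CTCF share at pairs in ICM-treated cells differed from control by 0.915 points, so the class of ICM-treated cells alone may depend on list length.

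**Figure D3:**
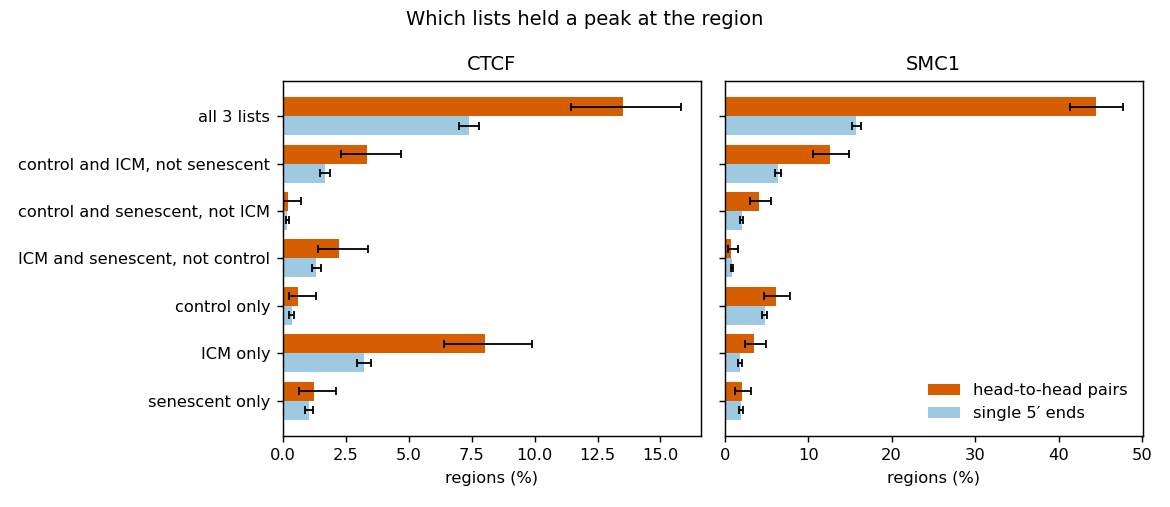
Share of regions (x axis, percent) in each class of lists that held a peak (y axis), for head-to-head pairs and single 5′ ends, with CTCF on the left and SMC1 on the right. Bars are exact 95% intervals over regions, and the classes of all 3 lists and, for CTCF, of ICM only stand out at pairs. The lists are uncut, and the CTCF list held 6728 peaks in ICM-treated and 4673 in control cells.

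For SMC1, pairs with a peak in control cells also had one in senescent cells more often than single 5′ ends did, and for CTCF the intervals overlapped. Regions were compared here, and whether the same peak recurred was not followed. Of 663 pairs with an SMC1 peak in control cells, 479 (72.2%, 68.7 to 75.6%) had one in senescent and 562 (84.8%, 81.8 to 87.4%) in ICM-treated cells, compared with 61.4% (60.03 to 62.8%) and 76.5% (75.3 to 77.7%) of single 5′ ends. Strength in the control list went along with this share. From the lowest 25 percentiles of the control list to those above the 75th, in 4 equal steps, the share of pairs also found in senescent cells was 28.2%, 60.3%, 68.6% and 93.0%, and that of single 5′ ends 29.1%, 42.1%, 63.2% and 88.7%. The intervals of pairs and single 5′ ends overlapped in each step except that from the 25th to the 50th percentile (51.0 to 69.1% against 39.1 to 45.1%). Of 174 pairs with a CTCF peak in control cells, 135 (77.6%, 70.7 to 83.5%) had one in senescent cells, and 78.97% (76.9 to 80.9%) of single 5′ ends did. The share in ICM-treated cells was 95.4% (91.1 to 98.0%) at pairs and 94.7% (93.5 to 95.8%) at single 5′ ends.

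Strong SMC1 pairs that lacked a peak in senescent cells included ELF1/WBP4 and C11orf71/RBM7. ELF1/WBP4, the former an ETS transcription factor, stood at 95.4 and 91.1 with summits at 572 and 570 bp, just outside its region, and C11orf71/RBM7, the latter an RNA exosome targeting protein, at 92.5 and 78.3. COL4A1/COL4A2, the genes of the main type IV collagen chains of basement membranes, stood at 84.5 in control and 47.0 in ICM-treated cells, with summits 1543 and 585 bp from the midpoint on the COL4A2 side. The highest signal of both was low, at the 11.7th and 10.9th percentile.

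In the other classes, for SMC1 the leading pairs in ICM-treated and senescent but not control cells were NUP43/PCMT1 (58.6 and 15.0), TSGA10/LIPT1 (15.5 and 57.3) and SH3YL1/ACP1 (20.7 and 44.5), and all of them stayed under the 60th percentile. For CTCF the leading pairs in control and ICM-treated but not senescent cells were RPL7/RDH10 (71.8 and 83.0), H2BC21/H2AC20 (60.9 and 67.9) and CNPPD1/RETREG2 (58.2 and 69.8). Those in ICM-treated and senescent but not control cells were PSD/FBXL15 (75.01 and 79.1), ATP5ME/MYL5 (60.1 and 73.3) and IGFL4/IGFL2 (40.6 and 57.6). Single-list classes were led by ENKD1/C16orf86 (CTCF control, 90.0), CFAP276/ELAPOR1 (CTCF ICM, 78.7), LIG1/ZSWIM9 (CTCF senescent, 53.5), POLR2L/TSPAN4 (SMC1 control, 92.8), PRKDC/MCM4 (SMC1 ICM, 72.1) and ZMAT5/UQCR10 (SMC1 senescent, 76.0). Several of these peaks reached into the region from beside it, with the summit outside. For CTCF this held at ENKD1/C16orf86 (1292 bp from the midpoint), CFAP276/ELAPOR1 (−1160 bp), H2BC21/H2AC20 (1632 and 2021 bp) and PSD/FBXL15 (2430 and 2428 bp). For SMC1 it held at POLR2L/TSPAN4 (1547 bp) and, in senescent cells, at NUP43/PCMT1 (801 bp).

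Occupancy went along with the spacing of the 5′ ends. With under 100 bp between the ends (251 pairs), SMC1 peaks covered 48.6% (42.3 to 54.97%), 41.4% and 36.3%. From 100 to under 250 bp (416 pairs) the shares were 69.5%, 62.7% and 49.5%, and from 250 to under 500 bp (235 pairs) 80.4% (74.8 to 85.3%), 78.7% and 66.4%. From 500 to 1000 bp (82 pairs) they were 76.8%, 67.1% and 65.9%. The CTCF share went from 8.76% (5.57 to 13.0%) under 100 bp over 15.6% and 25.5% to 32.9% (22.9 to 44.2%) at the widest spacing in control cells, from 14.3% to 52.4% in ICM-treated cells and from 7.97% to 34.1% in senescent cells. At the closest spacing the CTCF shares of control and senescent cells were thus not above those of single 5′ ends.

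Wider pairs also have longer regions, so all pairs were given one window of fixed width around the midpoint. The share in control cells was then 48.6%, 69.5%, 79.6% and 76.8% for SMC1 and the CTCF shares were the same as before. The same windows were set on divergent ends just outside the limits of the rule. Where the genes overlapped by up to 100 bp (29 pairs), SMC1 in control cells had 44.8% (26.4 to 64.3%) and CTCF 10.3% (2.19 to 27.4%). Just inside the upper limit, from 750 to 1000 bp (31 pairs), SMC1 in control cells had 70.97% (52.0 to 85.8%) and CTCF 41.9% (24.5 to 60.9%), and just beyond it, up to 1250 bp (21 pairs), 76.2% (52.8 to 91.8%) and 19.0% (5.45 to 41.9%). Farther out, from 1251 to 2000 bp (52 pairs), SMC1 in control cells had 44.2% and CTCF 13.5%. The intervals at both limits were wide and overlapped across them.

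**Figure D4:**
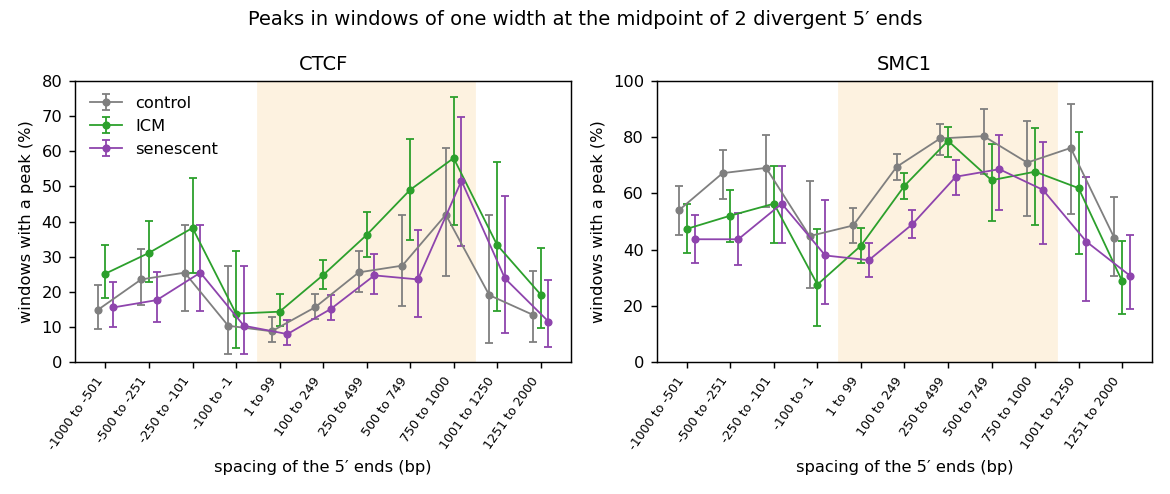
Share of windows of one width with a peak (y axis, percent) by the spacing of divergent 5′ ends (x axis, bp, negative where the genes overlap), for control, ICM-treated and senescent cells, with CTCF on the left and SMC1 on the right. Bars are exact 95% intervals, the shaded bins meet the rule for pairs, and within them the control CTCF share goes from 8.76% under 100 bp to 41.9% at 750 to 1000 bp.

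Among pairs with an SMC1 peak in control cells, the share that also had one in senescent cells differed with spacing. It was 64.8% (55.6 to 73.2%) of 122 pairs under 100 bp, 68.9% (63.2 to 74.2%) of 289, 79.4% (72.9 to 84.9%) of 189 and 81.0% (69.1 to 89.8%) of 63 at the widest. The median percentile of the control peaks in their list differed too, at 52.8, 63.9, 78.2 and 74.1, and its part in the shares was not tested.

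Cohesin summits inside the region lay mostly between the 5′ ends. The summit, the middle of the stretch of highest signal in a peak, lay at a median of −5, −3 and −7 bp from the midpoint of the pair for SMC1 in control, ICM-treated and senescent cells (positive towards the plus-strand gene) and at 7, −14 and −1 bp for CTCF. The summits between the quartiles ran from −72 to 61 bp for SMC1 in control cells, from −84 to 63 bp in ICM-treated cells and from −126.5 to 111.5 bp in senescent cells. For CTCF in control cells it ran from −201.25 to 157 bp. Of the SMC1 summits inside the region, 64.0% (60.1 to 67.7%), 62.4% (58.3 to 66.4%) and 53.3% (48.7 to 57.8%) lay between the 5′ ends, although the stretch between them made up 20.2 to 21.01% of the region length. For CTCF the shares were 47.6% (39.3 to 56.0%), 44.7% (38.3 to 51.3%) and 59.9% (51.5 to 67.9%), for 23.2 to 24.4% of the length. The share of length is what an even spread of summits would put in that stretch. At single 5′ ends the summits also leaned upstream, which at a pair is the side between the 5′ ends.

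Summits outside that stretch lay in similar numbers on both sides, 118 over the minus-strand gene and 112 over the plus-strand gene for SMC1 in control cells. Peaks were wide enough to cover both 5′ ends at 90.8% (88.3 to 92.9%) of pairs with an SMC1 peak in control cells, 84.1% in ICM-treated and 85.0% in senescent cells, and at 94.3%, 95.1% and 85.8% for CTCF. One peak therefore lay over both 5′ ends at most pairs with a peak, and only 11, 19 and 5 pairs held more than 1 SMC1 peak in the same order. The median SMC1 peak at pairs in control cells was 1046 bp wide, beside a median spacing of 173.5 bp, so a peak near a pair mostly reaches both ends. At single 5′ ends the summit lay upstream of the gene in 61.2 to 72.1% of cases over the 6 lists, with medians from −91 to −62 bp.

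**Figure D5:**
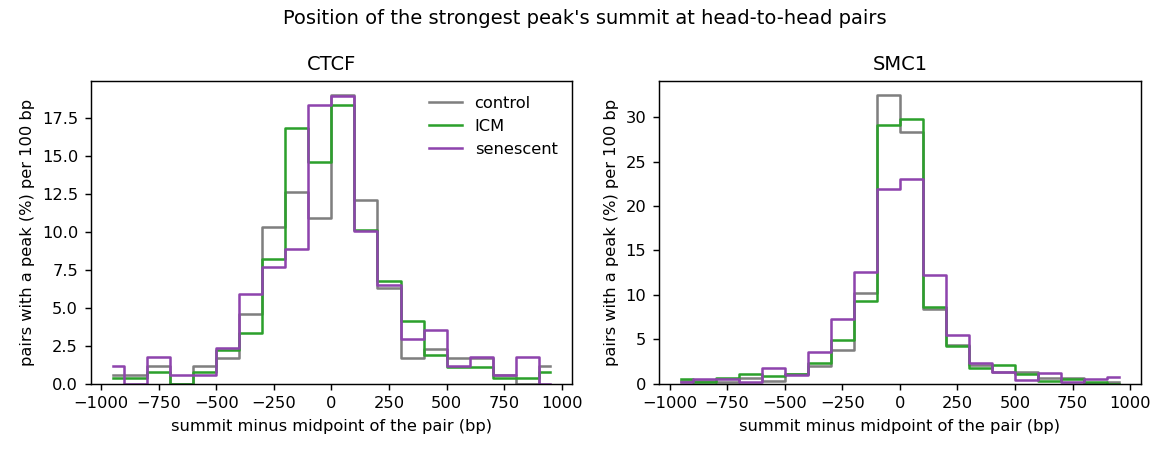
Distance of the summit of the strongest peak from the midpoint of the pair (x axis, bp, positive towards the plus-strand gene) as the percent of pairs with a peak per 100 bp (y axis), for control, ICM-treated and senescent cells, with CTCF on the left and SMC1 on the right. The SMC1 curves are narrow around 0, and the senescent curve is the widest, with quartiles at −126.5 and 111.5 bp.

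Within their lists, SMC1 peaks at pairs ranked higher than those at single 5′ ends and CTCF peaks did not. The median percentile of total signal was 66.8, 67.0 and 68.5 at pairs for SMC1 and 61.4, 62.0 and 60.5 at single 5′ ends. For CTCF it was 57.6, 53.8 and 53.5 at pairs and 59.6, 57.0 and 56.8 at single 5′ ends. Ranked by the highest signal reached in the peak, CTCF peaks at pairs had medians of 37.2, 31.0 and 26.8 and those at single 5′ ends 48.5, 43.8 and 43.7, so the CTCF peaks at pairs were low by this rank. Their median widths were 1979.5, 2117 and 1454 bp, beside 1944.5, 2192 and 1306 bp at single 5′ ends and 1797, 1960.5 and 1120 bp over the whole lists. The SMC1 medians by this measure were 60.4, 53.5 and 49.7 at pairs and 52.9, 47.6 and 49.7 at single 5′ ends, and those of senescent cells were equal to this precision.

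Genes of DNA repair and replication were often in pairs, with 34 of 105 (32.4%) compared with 10.3% of all 5′ ends. Their 34 pairs had an SMC1 peak at 22, 21 and 15 and a CTCF peak at 4, 8 and 6, and 11 pairs had no peak in any list. Over all 984 pairs the shares were 67.4%, 61.5% and 51.5% for SMC1 and 17.7%, 27.1% and 17.2% for CTCF, and the counts for each gene list here and below are to be set beside these. PCNA/CDS2, encoding the replication clamp, stood at 97.2, 99.4 and 95.6 for SMC1 and 77.3, 69.0 and 88.6 for CTCF, with all SMC1 summits 47 to 49 bp from the midpoint. NTHL1/TSC2, a DNA glycosylase and a regulator of mTORC1, stood at 35.7, 73.3 and 74.9 for SMC1 and 26.1, 44.3 and 58.5 for CTCF. Of 71 genes of this list with a single 5′ end, 38, 31 and 20 had an SMC1 peak and 5, 8 and 7 a CTCF peak. Over all single 5′ ends the shares were 29%, 24.8% and 20.6% for SMC1 and 9.57%, 13.6% and 9.9% for CTCF.

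Of 74 core and linker histone genes, 27 (36.5%) were in 14 pairs, mostly an H2A gene facing an H2B gene, and 13 of these pairs had an SMC1 peak in control cells, compared with 6 after ICM and 7 in senescence. The SMC1 share of all 984 pairs was likewise highest in control cells, at 67.4%, 61.5% and 51.5%, and 7 of 14 in senescent cells was near it. Of 47 single histone 5′ ends, 11, 5 and 3 had an SMC1 peak, beside 29%, 24.8% and 20.6% of all single 5′ ends. Peaks in all 3 SMC1 lists were found at 4 pairs. H2BC11/H2AC11 stood at 92.8, 74.6 and 61.7 for SMC1, and H2BC4/H2AC6 at 66.8, 59.8 and 45.8. A CTCF peak was found at 2, 3 and 1 of the histone pairs. H2AC25/H2BC26 on chromosome 1 had peaks in all 6 lists, at 92.0, 94.5 and 82.1 for CTCF and 85.1, 78.0 and 76.1 for SMC1, but its CTCF summit in senescent cells lay 1382 bp from the midpoint, outside the region. H2BC21/H2AC20 had no peak in either senescent list. Histone genes are nearly alike in sequence, and how reads that fit several copies were assigned is not given in the sources used here.

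Mitochondrial genes gave 22 pairs with a mitochondrial ribosomal protein and 29 with a subunit or assembly factor of the respiratory chain. The ribosomal protein pairs had SMC1 peaks at 16, 15 and 12 and CTCF peaks at 3, 5 and 4 in the same order, and the respiratory chain pairs at 17, 16 and 9 and at 1, 5 and 3. The shares of all 984 pairs were 67.4%, 61.5% and 51.5% for SMC1 and 17.7%, 27.1% and 17.2% for CTCF. SKA3/MRPL57 stood at 90.6, 95.3 and 83.0 for SMC1, and NDUFAF4/KLHL32, the former a complex I assembly factor, stood at 81.8 in control and 74.2 in ICM-treated cells and had no SMC1 peak in senescent cells. All 7 pairs with an aminoacyl-tRNA synthetase had an SMC1 peak in control cells, 6 in ICM-treated and 6 in senescent cells, among them WARS1/WDR25 (78.9, 78.4 and 75.3) and KARS1/TERF2IP (74.7, 84.2 and 81.1). The 6 pairs with a proteasome subunit had SMC1 peaks at 3 in each list, among them HPD/PSMD9 (93.4, 98.1 and 84.1).

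Of 12 pairs with an RNA polymerase subunit, 9, 7 and 7 had an SMC1 peak, and 3, 4 and 0 had a CTCF peak, where all pairs had 67.4%, 61.5% and 51.5% for SMC1 and 17.7%, 27.1% and 17.2% for CTCF. POLR2I/TBCB stood at 97.1, 91.8 and 96.9 for SMC1, and ZBTB4/POLR2A, the largest subunit of RNA polymerase II, at 92.1, 45.7 and 85.1, the last with a summit 602 bp from the midpoint and outside the region. Zinc finger genes were rarely in pairs, with 33 of 537 (6.15%), and their 27 pairs had SMC1 peaks at 15, 18 and 12 and CTCF peaks at 5, 6 and 3. ZNF425/ZNF398 stood at 93.9, 97.8 and 94.9 for CTCF and at 59.0, 35.1 and 52.1 for SMC1. The 3 collagen pairs had SMC1 peaks at 2, 2 and 0, and COL5A2/WDR75 stood at 67.0 and 20.98. Among 19 genes of cohesin, CTCF and the HMG proteins, 5 were in pairs, and these made 5 pairs. An SMC1 peak was found at 2, 3 and 2 of them and a CTCF peak at none, and 2 had no peak in any list. HMGB1/USPL1, which holds the gene of an HMGB protein that ICM binds, had SMC1 peaks at 90.9, 96.6 and 85.8 with summits 9 to 47 bp from the midpoint and no CTCF peak. It was also the only pair with one of 15 genes related to senescence in the study. MAU2, a subunit of the cohesin loader, faced SUGP1 and stood at 37.9, 63.2 and 85.8 for SMC1. These lists were chosen with results of these data known, and no call about a list is made.

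Promoter sequences that start at the annotated 5′ end were found for 1518 of 1941 ends of pairs (78.2%) and 11631 of 16842 single ends (69.1%), each covering 250 bases before and 50 after the end. Because fewer than 80% were matched, the shares below describe the matched ends and are not extended to the others. The ETS letters were in 30.6% of matched ends of pairs and in 14.8% of all matched promoters, the NRF1 letters in 6.32% and 2.91%, the YY1 letters in 6.06% and 2.92%, CCAAT in 42.6% and 36.8%, TATAAA in 4.08% and 10.1%, a GC box (GGGCGG) in 72.7% and 58.9% and the CTCF core in 15.5% and 13.2%. All matched promoters include the pairs, and over single ends alone the shares were 12.7%, 2.47%, 2.51%, 36.0%, 10.9%, 57.1% and 12.9% in the same order. Both strands were searched, and the CTCF core can overlap a GC box. With a median spacing of 173.5 bp, the windows of the 2 ends of most pairs overlap. One match can then count for both ends, and a window can hold the 5′ end of the partner, so these ends are not independent. The part of these letters in the higher share of occupied pairs was not tested.

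At least 1 promoter was matched for 882 of 984 pairs (89.6%), and over these pairs the peaks were set against the letters. Pairs with CCAAT (418) had an SMC1 peak more often than those without (464), by 14.01 (7.77 to 20.1), 16.3 (9.81 to 22.7) and 17.8 points (11.1 to 24.3), and a CTCF peak more often by 6.01 (0.731 to 11.3), 9.71 (3.64 to 15.8) and 8.67 points (3.46 to 13.9). CCAAT was also more frequent in wider pairs, at 29.0% under 100 bp and 58.7% from 250 to under 500 bp. The windows of the 2 ends overlap less in wider pairs, so more sequence was searched there, and less where only 1 end was matched. The part of the searched length in these shares and differences was not tested. Within the spacing of 100 to under 250 bp, where 190 pairs had CCAAT and 190 did not, the SMC1 shares were 58.9% and 43.7% in senescent cells, a difference of 15.3 points (4.85 to 25.3), and 76.8% and 65.3% in control cells (11.6 points, 2.10 to 20.9). Under 100 bp the senescent difference was 6.32 points (−8.17 to 21.2) and the control one −0.455 points (−15.4 to 14.6), and both intervals held 0. For CTCF in control cells the differences within spacing were −2.37 (−10.1 to 7.88) under 100 bp, 6.84 (−0.805 to 14.5) from 100 to under 250 bp, 1.04 (−12.2 to 13.7) from 250 to under 500 bp and 2.38 points (−21.7 to 25.2) beyond, and every interval held 0. In ICM-treated and senescent cells the interval lay above 0 only from 100 to under 250 bp, and ran from 0.996 to 18.9 and from 2.01 to 16.9 points.

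Pairs with the ETS letters (297) had a CTCF peak less often than those without, with differences of −8.91 (−13.9 to −3.51), −9.22 (−15.2 to −2.89) and −7.88 points (−12.9 to −2.53). For SMC1 the differences were −1.05 (−7.80 to 5.52), 1.76 (−5.22 to 8.58) and −9.26 points (−16.3 to −2.10). The ETS letters were more frequent in close pairs, at 42.4% under 100 bp and 28.2% from 250 to under 500 bp. Within spacing, from the closest to the widest, the CTCF differences in control cells were −7.14 (−14.9 to 1.22), −3.21 (−10.7 to 5.37), −16.9 (−28.5 to −2.87) and −8.33 points (−30.8 to 17.4), and 3 of the 4 intervals held 0. In ICM-treated and senescent cells all 4 CTCF intervals held 0, as did those for SMC1 in senescent cells. Pairs with the CTCF core (172) differed from those without by 6.79 (−0.0405 to 14.4), 8.97 (1.10 to 17.2) and 4.75 points (−1.84 to 12.2) in their CTCF share. The core is short and the window narrower than most CTCF peaks, so no match in the window says only that these letters are not there. Pairs with a GC box (692) differed in their SMC1 share by 3.72 (−3.89 to 11.7), 4.49 (−3.49 to 12.7) and 10.03 points (1.74 to 18.15), and in their CTCF share by 5.97 (−0.444 to 11.5), 6.41 (−1.01 to 13.2) and 2.42 points (−4.19 to 8.19). The senescent SMC1 interval lay above 0, and within spacing it did so from 250 to under 500 bp alone, at 27.1 points (6.53 to 46.2), where 30 pairs had no GC box. For NRF1, YY1 and TATAAA the interval of the difference held 0 in all 6 lists. The intervals for letters were taken for 7 motifs in 6 lists, over all pairs and in each of 4 spacings, and were not adjusted for their number. Among so many, some can leave out 0 without a difference, so no single interval is read as a test.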

How the data were processed

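The authors made CUT&Tag libraries with antibodies against CTCF and SMC1, aligned reads to hg38 with Bowtie2 2.3.4.1, used Picard 2.20.7 and deepTools, and called peaks per library with SEACR 1.3 in stringent mode, keeping the top 1% (tools per the submitters' processing notes and the methods of the study). The deposited lists give for each peak the total signal and the highest signal, both as the authors wrote them. Read counts are not in the lists, so depth is unknown.

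From the lists, the mitochondrial peak was set aside and overlaps of at least 1 bp were counted in Python 3.11.15 (pandas 2.3.3, scipy 1.17.1). The 5′ ends came from a RefSeq table on GRCh38. Strand came from RefSeq promoter sequences for 15100 of 19122 protein-coding genes and, by symbol and chromosome, from GENCODE 44 for 3683, and 339 without a strand were left out. Shares have exact (Clopper-Pearson) 95% intervals, and differences have intervals joined from these by square-and-add. Between conditions the same regions were counted, and this pairing was not used in the intervals. With 1 library per group no test was run. The counting steps were tested on simulated data. Named pairs are, per antibody, the 3 highest by mean percentile of each class of 2 or 3 lists that includes ICM, the highest of each single-list class, the 4 highest of all 6 lists, all textbook pairs and up to 4 pairs per gene list. Of these, 2 pairs are not reported here. Members and gene lists were chosen with earlier results of these data known.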

Additional observations from a re-analysis of the deposited data

Results flagged for a closer look

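Relative to control cells, the share of bidirectional promoters with a peak in ICM-treated cells differed in opposite directions for the 2 antibodies, by 9.45 points for CTCF and by −5.89 points for SMC1. This stood out because the signs were opposite, and whether the antibodies differ was not tested. In lists cut to one length per antibody the values were 0.915 and −11.6 points.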

How the results depend on the processing

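Of 84 values recomputed under other settings, 75 moved by less than their interval and 9 moved by more, and none reversed. Counting only peaks whose summit lay inside the region left the share of pairs in all 3 CTCF lists at 11.2%. The other 8 came from lists cut to the length of the shortest list of their antibody (4673 for CTCF and 12927 for SMC1). Pairs then differed from single 5′ ends by 8.61 points in the CTCF ICM list, 3.24 in the CTCF senescent list and 31.9 in the SMC1 ICM list. The share in all 3 lists was 8.33% for CTCF and 40.9% for SMC1. Against control, the CTCF share at pairs differed by −8.54 points in senescent and 0.915 points in ICM-treated cells, and the SMC1 share by −11.6 points in ICM-treated cells. The cut removes weak peaks from the longer lists by construction. A margin of 250 bp, a spacing of up to 500 bp (902 pairs), windows of equal width and single 5′ ends with no other within 2000 bp (15575) moved none of the values by more than its interval. The same held for each gene in 1 pair only (957 pairs) and for single regions that touch no pair, both chosen after seeing the data. The planned limit to CpG-rich promoters was not run because fewer than 80% of 5′ ends had a sequence. No analysis paired by culture was possible because each group has 1 library. A comparison of conditions paired by region was not run. Depth is unknown, so a region without a peak is not shown to be unbound.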
